A study of Homo sapiens with 6 samples.

Results

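Peaks of open chromatin that lie far from genes were described in human neural progenitor cells (NPCs). A peak was counted as distal intergenic when its summit lay outside the body of every protein-coding gene and more than 10 kb from the transcription start site (TSS) of any gene, coding or not, among 62700 genes of GENCODE version 44 on the genome build hg38. By this rule 7845 of the 50267 peaks in 3 lists were distal intergenic, 955 of 7880 in WT, 4202 of 25439 in dKO and 2688 of 16948 in the list called BAF53B here. The position of a peak, and not its height, chose it.

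The assay was ATAC-seq, which reads out open chromatin through a transposase, Tn5, that inserts adapters where DNA is free of nucleosomes. All groups were NPCs made from the H1 human embryonic stem cell line, an established line. WT NPCs were unmodified, dKO NPCs carried knockouts of both UTX and JMJD3, and BAF53B NPCs carried the same knockouts and were transduced with a lentivirus expressing BAF53B. WT and dKO NPCs were taken at passage 2, and the passage of the BAF53B cells is not given in the sources used here. There were 6 samples, 2 per group, and both samples of a group were merged into 1 list of peaks. No value has a replicate error, no p-value was computed, and a difference between lists describes these pooled libraries of 1 cell line. Whether the knockout cells were 1 clone or several is not stated in the sources used here.

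Distal intergenic DNA holds enhancers, which act on promoters over long distances, and insulators bound by CTCF, which shape chromatin loops. Enhancers are opened by transcription factors such as AP-1, SOX and RFX proteins together with remodelling complexes such as BAF, whose neuronal form carries BAF53B. UTX and JMJD3 remove a repressive methyl mark from histone H3, and this mark covers many developmental genes and the DNA around them. The same intergenic space holds the satellite repeats next to centromeres.

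The cell type label was checked at promoters. Of 12 marker genes of neural progenitors, 2 had a peak within 3 kb of the TSS in the WT list (VIM and HES1), 8 in dKO and 6 in BAF53B. Over all protein-coding genes 28.0% had such a peak in WT, 56.0% in dKO and 44.6% in BAF53B, so the marker counts are read beside these shares. SOX1 had a promoter peak in dKO and BAF53B and SOX2 in dKO only, so the WT list holds none at either defining marker. SOX3, PAX6, NES and OTX2 had none in any list. Of 5 pluripotency markers 0, 1 and 0 had a peak, of 4 neuronal markers 0, 1 and 0, and of 5 mesenchymal markers 0, 2 and 2, in the same order. The genome background, which the peak caller sets from the number of tags and which stands here for depth, was 6.33 fragments in WT, 6.81 in dKO and 6.78 in BAF53B.

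The sequences below are 101 bases centred on the summit of a peak, from the plus strand of hg38, and are shown because each holds a motif that the results turn on or is one of the strongest peaks. Capitals mark the match to the motif. The first set holds TGACTCA, the site bound by AP-1 (FOS and JUN dimers), and is the strongest distal intergenic peak with an AP-1 match in each list, followed by some of the strongest single-copy peaks that WT and BAF53B share and dKO lacks. The WT and dKO windows near ZFAND3 overlap and 1 is printed.
AP-1 near ZFAND3 (WT and dKO), chr6:37791467-37791567: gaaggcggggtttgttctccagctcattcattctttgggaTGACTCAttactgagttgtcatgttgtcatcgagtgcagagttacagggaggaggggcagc
AP-1 near PIGP (BAF53B), chr21:37060468-37060568: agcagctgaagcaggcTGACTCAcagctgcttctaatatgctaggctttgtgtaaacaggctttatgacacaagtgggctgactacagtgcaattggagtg
AP-1 near RBM47 (WT and BAF53B, not dKO), chr4:40673021-40673121: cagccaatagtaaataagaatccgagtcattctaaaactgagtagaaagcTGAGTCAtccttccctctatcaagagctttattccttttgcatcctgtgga
AP-1 near STEAP1 (WT and BAF53B, not dKO), chr7:89837688-89837788: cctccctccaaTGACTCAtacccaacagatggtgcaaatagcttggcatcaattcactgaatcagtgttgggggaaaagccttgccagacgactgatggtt
AP-1 near IFNE (WT and BAF53B, not dKO), chr9:21591728-21591828: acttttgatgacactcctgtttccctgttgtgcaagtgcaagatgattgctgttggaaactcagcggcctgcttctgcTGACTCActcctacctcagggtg

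The next set holds matches to the core of the CTCF motif, then to the SOX, RFX and octamer motifs, again in the strongest member of each list. RFX factors act in ciliated and neural cells, and the octamer is bound by POU factors, which are prominent in neural progenitors and in pluripotent cells. The strongest SOX matches of WT and BAF53B were the same peak in a repeat, and the octamer peak near MYH9 led in both dKO and BAF53B.
CTCF near AKAP10 (WT), chr17:19992917-19993017: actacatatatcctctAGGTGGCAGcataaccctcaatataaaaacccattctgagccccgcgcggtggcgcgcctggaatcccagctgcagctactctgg
CTCF near CYP2W1 (dKO), chr7:993269-993369: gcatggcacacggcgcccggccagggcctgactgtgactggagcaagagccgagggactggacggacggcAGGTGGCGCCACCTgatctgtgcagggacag
CTCF near SYT3 (BAF53B), chr19:50608159-50608259: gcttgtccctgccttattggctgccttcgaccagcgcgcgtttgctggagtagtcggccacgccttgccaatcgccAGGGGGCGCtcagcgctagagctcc
SOX near NTMT1 (dKO), chr9:129557535-129557635: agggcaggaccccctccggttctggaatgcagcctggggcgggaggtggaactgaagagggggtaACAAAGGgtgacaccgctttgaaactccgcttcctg
SOX near PLD5P1 (WT and BAF53B), chr10:40128247-40128347: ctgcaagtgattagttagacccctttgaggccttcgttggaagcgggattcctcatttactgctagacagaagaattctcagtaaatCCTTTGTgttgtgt
RFX near BECN2 (WT), chr1:241972810-241972910: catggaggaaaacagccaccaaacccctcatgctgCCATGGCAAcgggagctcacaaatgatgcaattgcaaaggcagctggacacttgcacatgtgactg
RFX near DDIT4 (dKO), chr10:72298126-72298226: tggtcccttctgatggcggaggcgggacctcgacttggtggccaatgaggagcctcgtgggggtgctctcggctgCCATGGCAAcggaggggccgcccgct
RFX near SOX11 (BAF53B), chr2:5410253-5410353: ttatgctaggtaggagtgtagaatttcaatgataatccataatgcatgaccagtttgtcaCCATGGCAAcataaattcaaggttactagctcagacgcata
Octamer near PCDH9 (WT), chr13:67736961-67737061: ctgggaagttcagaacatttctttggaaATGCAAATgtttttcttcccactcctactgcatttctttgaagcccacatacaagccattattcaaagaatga
Octamer near MYH9 (dKO and BAF53B), chr22:36410179-36410279: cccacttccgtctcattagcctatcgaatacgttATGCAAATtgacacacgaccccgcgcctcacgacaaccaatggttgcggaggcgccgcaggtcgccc

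The last set shows a pair of the peaks of highest fold. They hold none of the 5 motifs above within 50 bp of the summit, so no base is in capitals, and the 31-base words around the first summit occur a median of 1144 times in hg38.
Repeat peak, nearest WSB1 (all 3 lists), chr17:26603848-26603948: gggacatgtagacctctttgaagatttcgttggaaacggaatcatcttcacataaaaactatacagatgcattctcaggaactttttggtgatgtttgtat
Repeat peak, nearest KHDRBS2 (all 3 lists), chr6:61322996-61323096: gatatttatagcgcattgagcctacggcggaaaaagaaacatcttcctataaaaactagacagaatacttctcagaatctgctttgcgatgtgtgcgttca

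The share of peaks that were distal intergenic was low in all 3 lists against the genome. Such positions made up 40.1% of hg38 (1178 Mb), but 12.1% of WT peaks (95% interval 11.4 to 12.9), 16.5% of dKO peaks (16.1 to 17.0) and 15.9% of BAF53B peaks (15.3 to 16.4). Most peaks lay within 3 kb of a TSS, at 66.3% in WT, 50.2% in dKO and 54.5% in BAF53B, against 10.6% of the genome. The order of the lists turned with the number of peaks kept. When each list was cut to the length of the WT list by its −log10 q, distal intergenic peaks made up 5.19% of dKO and 8.76% of BAF53B. Intervals of shares are 95% Wilson intervals throughout, and they take in counting error alone. The length of the lists differed far more than their genome background, and its part in these shares was not tested.

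Members became rarer with distance from protein-coding genes. In the part of the genome that qualifies, dKO had 6.87 peaks per Mb between 10 and 50 kb from the nearest protein-coding TSS and 1.51 per Mb beyond 500 kb. BAF53B fell from 3.51 to 1.41 per Mb over the same bins, and WT from 1.11 to 0.684 per Mb. The dKO and BAF53B densities were thus far apart near genes and close to each other in the most remote bin. The median distance to the nearest protein-coding TSS was 173 kb in WT, 95.5 kb in dKO and 135 kb in BAF53B, against 227 kb for qualifying positions of the genome. Among members of sequence that is single-copy in hg38 it was 140 kb (139.9), 90.4 kb and 127 kb.

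**Figure D1:**
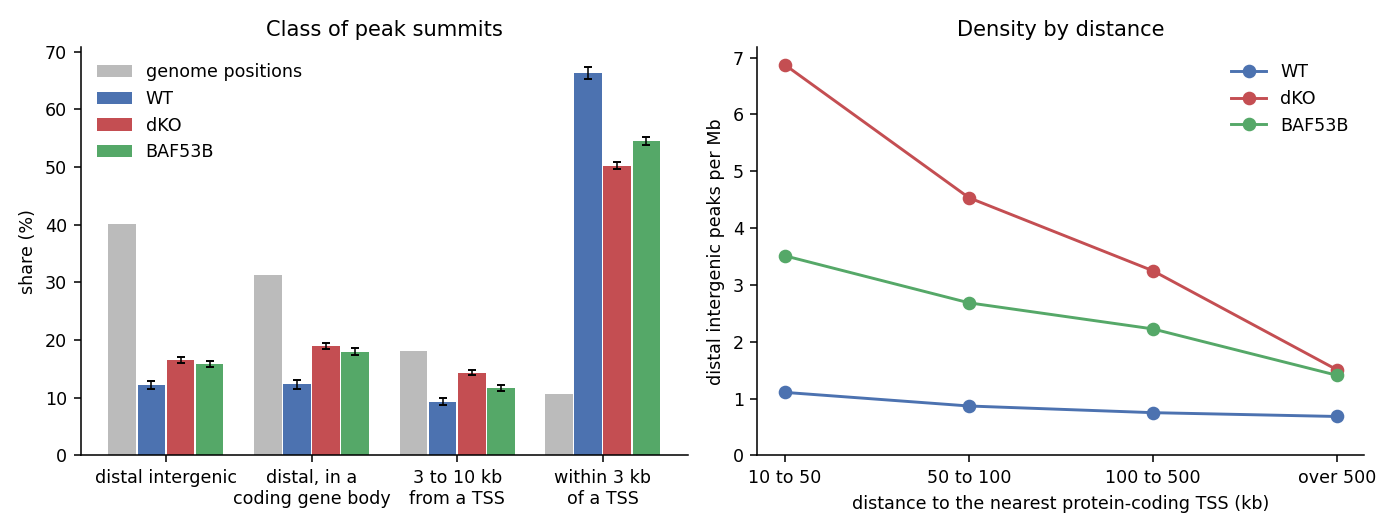
The left panel shows the share (%) of peak summits of each list, and of positions every 1000 bases of hg38, in 4 classes of distance from a TSS, with Wilson 95% intervals. The right panel shows distal intergenic peaks per Mb of qualifying genome by distance to the nearest protein-coding TSS, from 6.87 in dKO at 10 to 50 kb down to 0.684 in WT beyond 500 kb.

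Around the threshold of 10 kb the peaks did not change abruptly. Intergenic peaks from 10 to 11 kb from a TSS numbered 38 in WT, 168 in dKO and 97 in BAF53B, with a median fold of 3.58, 3.46 and 3.64. Peaks from 9 to 10 kb numbered 33, 199 and 100, with a median fold of 3.54, 3.47 and 3.61. Inside a non-coding gene lay 25.8% of members in WT, 25.3% in dKO and 28.4% in BAF53B, and the remaining 709, 3138 and 1925 lay outside every annotated gene body.

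Members were weaker and narrower than promoter peaks. The median number of fragments at the summit was 30 in WT and 32 in both other lists, against 39, 51 and 43 within 3 kb of a TSS. The median width was 329 bp, 396 bp and 412 bp, against 542 bp, 730.0 bp and 720.0 bp. A −log10 q of at least 10 was reached by 18.5%, 21.7% and 21.4% of members. Members of dKO were richer in G and C, with a median GC content of 52.7% within 100 bp of the summit against 46.8% in WT and 47.8% in BAF53B, and 38.3% in windows of the qualifying genome.

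The strongest distal intergenic peaks lay in repeated DNA beside centromeres and were near equal in the 3 lists. By the median number of genome copies of the 31-base words around the summit, 121 WT, 169 dKO and 122 BAF53B members had 2 copies or more, called multi-copy here. That is 12.7% of WT, 4.02% of dKO and 4.54% of BAF53B members, against 18.8% of windows of the qualifying genome. Members of a −log10 q of at least 10 made up 71.1% of the multi-copy members of WT, against 10.9% of the single-copy ones, with 53.3% against 20.4% in dKO and 67.2% against 19.2% in BAF53B. Reads from any copy can be placed at such a peak, so its height does not belong to 1 position.

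The peak of highest fold in each of the 3 lists was at chr17:26603762-26604358, 690.2 kb from the TSS of WSB1, with 714 fragments in WT, 628 in dKO and 831 in BAF53B and a fold of 51.2, 50.4 and 52.4. Its sequence is printed above. The next was at chr6:61322887-61323211, 963 kb from KHDRBS2, with 430, 356 and 480 fragments. The member with most fragments in WT was at chr1:125179961-125180330, whose nearest protein-coding TSS, that of FAM72B, was 3995 kb away, with 802, 766 and 798 fragments. At all these peaks dKO had the fewest fragments. A block of 25 member regions spanned 62.4 kb of chromosome 1 (143210817 to 143273265), and 23 of them were multi-copy. Its nearest protein-coding gene by TSS was H3-7, and the gene had 31 member regions in all, 20 of them in all 3 lists.

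The members farthest from any protein-coding TSS lay on the short arms of chromosomes 21 and 22. The farthest was a WT peak at chr21:5220047-5220256, 5301 kb from TPTE, with 28 fragments and a fold of 3.96. The next 4 were 4747 to 4505 kb from OR11H1, an olfactory receptor gene, and 2 of them were in WT and 2 in dKO. None of these 5 was found in a second list.

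Among single-copy members some were near equal in the lists and others were not. The single-copy peak of highest −log10 q in WT and BAF53B, at chr1:143246921-143247215 within the block near H3-7, had 109 fragments in WT, 125 in dKO and 144 in BAF53B, and the next, 1145 kb from RPIA, had 112, 107 and 117. The strongest single-copy peak of dKO by −log10 q was at chr14:102524235-102525161, 15 kb upstream of ANKRD9, with 164 fragments in dKO against 43 in WT and 45 in BAF53B. Scaled to the genome background it was 3.54-fold higher in dKO than in WT. The second, at chr15:92831488-92832182 and 22.1 kb upstream of FAM174B, had 155 fragments in dKO, 44 in WT and 68 in BAF53B, a ratio of dKO over WT of 3.27. At chr19:2060918-2061995, 10.4 kb upstream of MKNK2, a kinase that acts on translation, the counts were 144, 44 and 70 in the same order. At these peaks BAF53B lay near or somewhat above WT. They were picked by their −log10 q in dKO, so a higher dKO count is partly set by the choice. Over the 267 single-copy WT members shared with dKO the median ratio of dKO over WT was 1.15. The peak near ZFAND3 whose sequence is printed above had 115 fragments in dKO, 56 in WT and 48 in BAF53B.

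The lists were then set against each other. Counting any overlap, 6469 distal intergenic regions were covered by the members of the 3 lists, and 293 of them (4.53%) had a peak in all 3. Regions held by dKO alone were 50.8% (3286), by BAF53B alone 25.8% (1671) and by WT alone 6.65% (430). WT and BAF53B without dKO shared 166, dKO and BAF53B without WT 556, and WT and dKO without BAF53B 67. Shares of these patterns over all peaks are not given here, so they are not read as particular to members. Shares for pairs of lists over all peaks follow below. Of the 293 in all 3 lists 87 were multi-copy, against 62 of the 3286 in dKO alone. The number of regions per pattern follows the length of the lists, and a region that misses a list can hold signal under the threshold of the list, a −log10 q of 5.

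Distal intergenic peaks were shared less often than peaks near genes. Of WT members 62.4% had no dKO peak at the same place, against 20.6% of all WT peaks and 5.11% of those within 3 kb of a TSS. Among single-copy WT members it was 68.0%, and among multi-copy ones 23.97%. Distal peaks inside coding genes lay between, at 52.0%. Of WT members 52.1% had no BAF53B partner, against 20.5% of all WT peaks. The WT members thus met a BAF53B peak more often (47.9%, 44.7 to 51.0) than a dKO peak (37.6%, 34.6 to 40.7), although the BAF53B list is shorter. Over all WT peaks the shares were 79.5% and 79.4%. Distal WT peaks inside coding genes showed the same contrast, at 56.5% (53.4 to 59.6) and 48.0% (44.9 to 51.2). It is therefore not particular to intergenic peaks.

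In the longer lists most members had no partner. Of dKO members 91.5% had no WT peak (75.6% of all dKO peaks) and 79.8% no BAF53B peak (55.7% of all dKO peaks). Of BAF53B members 83.0% had no WT peak (63.3% of all BAF53B peaks) and 68.3% no dKO peak (33.3% of all BAF53B peaks). In every one of the 6 directions the single-copy members had the lowest share of partners of the classes compared. Among members with a −log10 q of at least 10 the WT share without a dKO partner was 19.8%, and 35 of the 596 WT members with no partner were above that level. At the same cut the share was 34.1% among single-copy WT members (31 of 91). It was 15.5% among distal WT peaks in coding genes, 4.79% at 3 to 10 kb and 0.772% within 3 kb of a TSS.

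**Figure D2:**
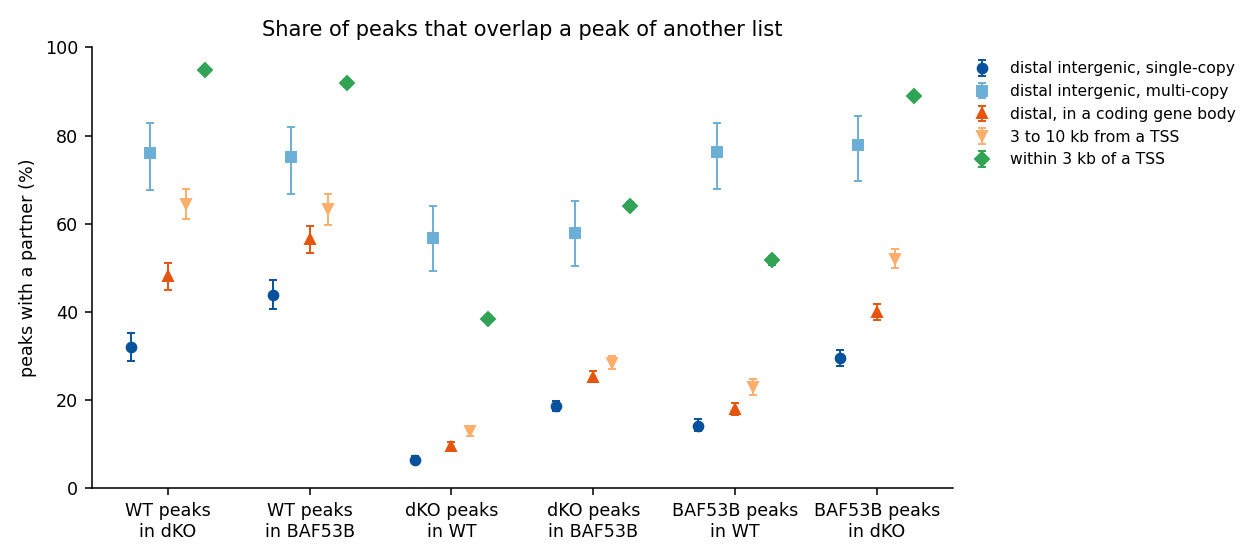
For each pair of lists, the share (%) of peaks of the first list that overlap a peak of the second by at least 1 bp, by class, with Wilson 95% intervals. Single-copy distal intergenic peaks have the lowest share in each pair (32.0% of WT peaks in dKO), multi-copy ones 56.8% to 77.9%, and WT peaks within 3 kb of a TSS reach 94.9% in dKO.

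Of the 596 WT members without a dKO partner, 27.9% (166) overlapped a BAF53B peak. Of the 3844 dKO members without a WT partner, 14.5% overlapped a BAF53B peak. At equal list length the order of these shares was the reverse, as given below. The matching shares over all peaks are not given here. The strongest region that WT and BAF53B shared and dKO lacked was at chr7:152989835-152990456, 230.4 kb downstream of the TSS of ACTR3B, with 50 fragments in WT and 61 in BAF53B. The next were 506 kb upstream of PCDH9, a protocadherin of neural cells, with 36 and 55 fragments, and 568 kb downstream of CDH9, a neuronal cadherin, with 33 and 49. In each the WT count was above the lowest of its list, 25 fragments, and the BAF53B count was higher than the WT count. These regions were picked by the highest −log10 q in any list, so this difference is partly set by the choice.

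The strongest region of dKO and BAF53B without WT was at chr2:44802640-44803228, 139 kb upstream of SIX3, a transcription factor of the forebrain and eye, with 126 fragments in dKO and 48 in BAF53B. It was followed by chr10:78656753-78657856, 412 kb upstream of ZMIZ1, with 100 and 36 fragments, and by chr7:76379656-76380480, 17.5 kb upstream of ZP3, with 93 and 51. All were lower in BAF53B than in dKO. They were picked by the highest −log10 q in any list, so a difference between the lists is partly set by the choice. Over the 849 dKO members with a BAF53B partner the median ratio of BAF53B over dKO was 0.957, and 44.9% were higher in BAF53B. Regions of dKO alone were led by chr1:30685152-30685923 near MATN1, a cartilage matrix gene, with 107 fragments, by a peak 27.8 kb upstream of MEIOC with 88 and by a peak 46.2 kb downstream of SPRY4, an inhibitor of growth factor signalling, with 88. Regions of BAF53B alone were led by a peak 133 kb upstream of MYO16 with 57 fragments, a peak 31 kb upstream of IRF2BPL with 58 and a peak 27.7 kb downstream of TCF21, a mesodermal transcription factor, with 56. Those of WT alone were the weakest, at 41 fragments near LIMCH1, 41 near CCDC179 and 37 in a 2-copy sequence nearest OR11H1. Regions of WT and dKO without BAF53B were led by a peak 13 kb upstream of DDIT4, a stress response gene, with 42 fragments in WT and 115 in dKO.

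Where a distal intergenic peak was present in both WT and dKO, its height differed little. Height is the number of fragments at the summit over the genome background of the list. At the 359 shared WT members the median ratio of dKO over WT was 0.08 on the log2 scale (0.04 to 0.14), or 1.06-fold, from median counts of 35 in WT and 43 in dKO. At the 4959 shared peaks within 3 kb of a TSS it was 0.76 (0.74 to 0.77), from 40 in WT and 73 in dKO, and at the 465 distal peaks in coding genes it was 0.49. The single-copy members had a median of 0.20 (0.12 to 0.28, n = 267) and the multi-copy members −0.19 (−0.26 to −0.13, n = 92). Among members more than 50 kb from any TSS the median turned to −0.11, and with each list cut to the length of the WT list it was 0.37. The intervals are order-statistic intervals over peaks and do not cover differences between libraries.

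Few members changed by 2-fold. In dKO against WT, 20 of 359 members (5.57%) were at least 2-fold higher, against 24.5% of all shared WT peaks, and 2 were at least 2-fold lower, against 0.032% of all. Both that were lower were multi-copy. In BAF53B against WT, 1 of 457 members was 2-fold higher (0.925% of all shared WT peaks) and 0 lower (0% of all), and the median was 0.09 (0.05 to 0.12). In BAF53B against dKO, 2 of 849 members were 2-fold higher (0.071% of all shared dKO peaks) and 27 lower (3.18%, against 6.32% of all), with a median of −0.06. The comparisons share lists, and their values stand side by side only.

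**Figure D3:**
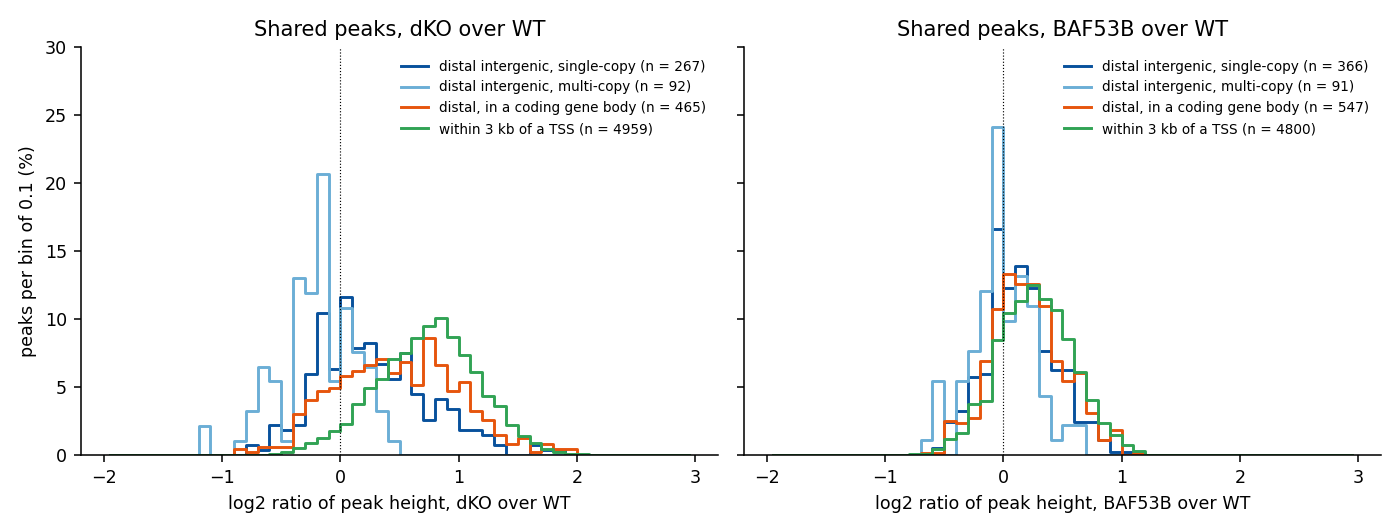
Distribution of the log2 ratio of peak height at peaks shared with WT, for dKO (left) and BAF53B (right), as the share (%) of peaks per bin of 0.1, by class of the WT peak. In dKO the multi-copy distal intergenic peaks centre on −0.19, the single-copy ones on 0.20 and peaks within 3 kb of a TSS on 0.76.

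The motifs at the summits differed between the lists. A motif was counted when its letters, on either strand, lay within 100 bp of the summit. AP-1 (TGACTCA) was found in 13.5% of WT members (129 of 955, 11.5 to 15.8), 4.998% of dKO members (210 of 4202, 4.38 to 5.70) and 15.8% of BAF53B members (425 of 2688, 14.5 to 17.2). In windows of the qualifying genome away from peaks the share was 2.93%, and in peaks within 3 kb of a TSS it was 2.09%, 2.16% and 2.79%. AP-1 matches were thus several times more frequent in WT and BAF53B members than in the genome, and less so in dKO members. The same order was seen at distal peaks inside coding genes, at 14.2%, 4.95% and 13.9%, so it is not particular to intergenic peaks.

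The AP-1 share depended on which lists held the peak. It was 29.5% (23.1 to 36.9) in the 166 WT members with a BAF53B and no dKO partner, and 31% of the 158 single-copy ones. It was 18.4% (16.6 to 20.3) in BAF53B members found in no other list, 10.47% in WT members found in no other list and 4.44% (3.79 to 5.20) in dKO members found in no other list. In WT members with a partner in both other lists it was 11% (32 of 291). Of the BAF53B members 19.2% of those without and 8.46% of those with a dKO partner held the match. The matches were most frequent around the summit. Within 20 bp of it there were 100 in BAF53B members, against 17 in an equal width 400 bp away, 28 against 4 in WT and 56 against 31.5 in dKO.

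The lists differed in GC content, so the shares were also taken in bands of it, a choice made after the data had been seen. Below 45% GC the AP-1 share was 12.7% in WT, 5.25% in dKO and 17.0% in BAF53B, against 2.70% of genome windows. From 45 to 55% it was 16.4%, 6.06% and 17.4% against 3.84%, and above that 8.28%, 3.72% and 10.4% against 2.82%. dKO was the lowest of the lists in each band.

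**Figure D4:**
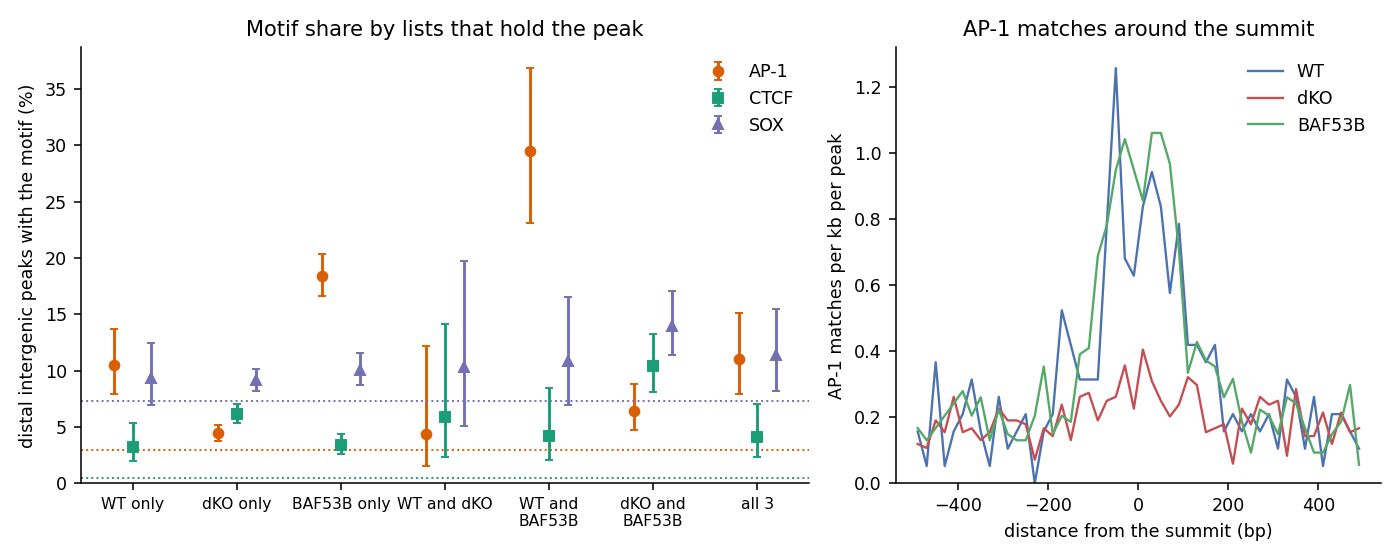
Left, the share (%) of distal intergenic peaks with an AP-1, CTCF or SOX match within 100 bp of the summit, by the lists that hold the peak, with Wilson 95% intervals and dotted lines at the share in qualifying genome windows; for peaks in several lists the window is that of the first list named. Right, AP-1 matches per kb per peak by distance from the summit in bins of 20 bp. AP-1 reaches 29.5% in peaks of WT and BAF53B without dKO and is 4.44% in peaks of dKO only.

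CTCF matches were more frequent in dKO than in WT members, but the order of the lists changed between bands of GC content. The 4 cores searched were AGGGGGCGC, AGGTGGCGC, AGGGGGCAG and AGGTGGCAG, and were found in 3.87% of WT (2.82 to 5.29), 6.54% of dKO and 5.10% of BAF53B members, against 0.514% of genome windows. Over all peaks of the lists the shares were 4.26%, 6.19% and 4.89%. At distal peaks inside coding genes they were 3.93%, 6.07% and 4.43%, so the order is not particular to intergenic peaks. Among members, the highest shares by pattern were in those that dKO and BAF53B shared and WT lacked. They were 10.4% by the dKO summit and 10.7% by the BAF53B summit. The share fell with distance from genes, from 10.2% of dKO members 10 to 50 kb from a protein-coding TSS to 2.17% beyond 500 kb. Below 45% GC the shares in WT, dKO and BAF53B were 0.995%, 0.984% and 1.204%, and in the highest band 10.8%, 9.92% and 12.03%, so dKO was the lowest in both. From 45 to 55% they were 4.04%, 5.32% and 4.85%, with overlapping intervals. The printed peak near CYP2W1 holds 2 overlapping matches, 1 on each strand, and had 101 fragments in dKO and 47 in BAF53B.

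Of the other motifs some differed between the lists by as much as CTCF, among them SP/KLF, the CAGCTG E-box and OTX, and others by less. The SOX matches (CCATTGT or CCTTTGT) were in 10.3% of WT, 10.0% of dKO (10.04) and 10.6% of BAF53B members, against 7.28% of genome windows. The RFX matches (TTGCCATGG, TTGCTATGG or TTACCATGG) were in 2.30%, 1.5% and 2.49%, against 0.504% of windows. The TEAD match (ACATTCC) was in 6.39%, 6.31% and 7.22%, against 3.97%. The octamer (ATGCAAAT) was in 1.36%, 1.0% and 1.26% and in 2.35% of windows, so it was not above the genome, nor was the homeobox core (TAATTA), at 4.398%, 4.95% and 5.84% against 8.98%. The CAGCTG E-box, bound by proneural and other bHLH factors, was in 14.0% of WT, 18.9% of dKO and 15.7% of BAF53B members, against 5.92% of windows. The SP/KLF core (GGGCGG) was in 7.75%, 12.7% and 8.37% of members and in 63.0%, 58.9% and 60.2% of peaks within 3 kb of a TSS, and the ETS core (CCGGAAG) in 1.36%, 1.5% and 1.38% of members and 17.0%, 12.9% and 14.4% of promoter peaks. Both cores were thus rarer in distal intergenic than in promoter peaks of the same list. The OTX core (TAATCC) was in 9.01%, 5.76% and 8.97% against 12.4% of windows, and the CAGATG E-box in 13.4%, 14.5% and 15.3% against 12.4%. Median GC content was 46.8% in WT, 52.7% in dKO and 47.8% in BAF53B members, against 38.3% in genome windows. Bands of GC content were not taken for the octamer, homeobox, OTX, E-box, SP/KLF and ETS matches. The part of GC content in their differences from the genome and between lists was not tested. A match is a run of letters and does not show that a factor was bound.

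Members were assigned to the protein-coding gene with the nearest TSS. In WT 730 of 20046 genes (3.64%) had at least 1 member, in dKO 2557 and in BAF53B 1722. The nearest gene had a peak within 3 kb of its own TSS for 28.7% of WT, 59.5% of dKO and 47.5% of BAF53B members. For positions of the qualifying genome weighted alike these shares were 22.5%, 53.2% and 41.3%, so each list's members lay somewhat more often next to genes with an open promoter than the territory does.

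The genes with most single-copy members in dKO had 8 to 13 each. SOX11, a transcription factor of neural precursors, and NR2F2, an orphan nuclear receptor of the forebrain and of mesenchyme, had 13 each, and EFNA5 (an ephrin ligand), ID2, JARID2 and TBX3 had 9 each. MN1, MSX2, PREX1, SOX9, TBL1XR1 and TLE3 had 8. In WT 8 of these 12 genes had 0 single-copy members and the others 1 or 2, and in BAF53B all had between 1 and 8. The genes were picked by their dKO counts, so lower counts in the other lists are partly set by the choice. The WT list also had only 955 members against 4202 in dKO. The territory nearest to SOX11 measured 1.38 Mb and that nearest to NR2F2 1.37 Mb, so that dKO had 9.45 and 9.48 single-copy members per Mb there. Over the whole qualifying genome dKO had 3.57 members per Mb, single-copy and multi-copy together.

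In BAF53B the genes with most single-copy members included ACVR2A, a receptor of activin, and CDH9, with 9 each, and SOX11, SPRY1 and SPRY2 with 8 each. In dKO the same genes had 5, 1, 13, 6 and 5, and in WT 1, 3, 2, 1 and 1. In WT the leading genes were OR11H1, MAP3K7 and TPTE, with 6, 5 and 5, of which OR11H1 and TPTE are the nearest genes of short arms of acrocentric chromosomes. Genes were ranked after the counts were known, so that high counts are a description.

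At SOX11 (chr2:5692384-5701385, plus strand) 17 regions lay 84.9 to 791 kb from the TSS. dKO alone held 8 of them, dKO and BAF53B 5, BAF53B alone 2, WT and dKO 1 and WT and BAF53B 1. The highest dKO peak was 254 kb downstream, with 58 fragments in dKO and 42 in BAF53B. The highest BAF53B peak was 377 kb downstream, with 54 fragments, and the other lists had none there. The WT peaks had 34 fragments each, 362 and 381 kb downstream. At the peak 282 kb upstream, whose RFX match is printed above, dKO had 34 fragments and BAF53B 44.

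At NR2F2 (chr15:96325938-96340263, plus strand) 16 regions lay 60.9 to 768 kb from the TSS, 13 of them in dKO alone and 3 in BAF53B alone. No region was in both lists and none was in WT. The highest was 289 kb upstream at chr15:96036530-96036984, with 72 fragments in dKO and a fold of 6.97. The next were 273 kb upstream with 52 and 480 kb (479.9) upstream with 49, and the BAF53B peaks had 42, 32 and 31. ACVR2A had 13 regions, 7 of them in BAF53B alone with 26 to 30 fragments, and EPHA7, an ephrin receptor, had 12, of which 6 were in dKO alone and 4 in BAF53B alone.

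**Figure D5:**
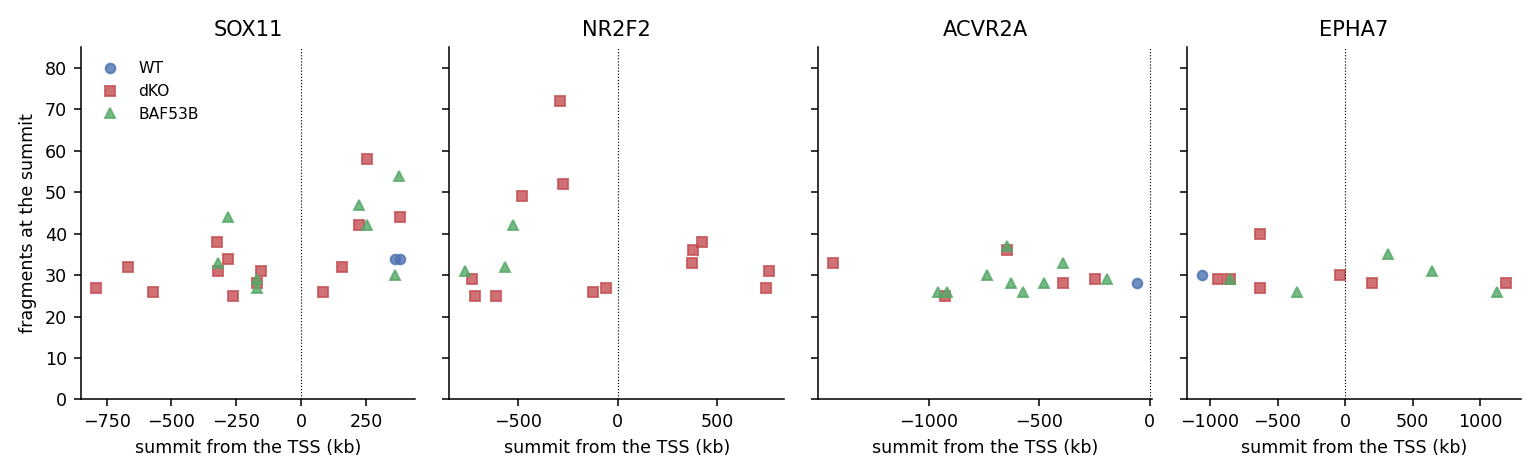
Number of fragments at the summit of each distal intergenic peak against its distance from the TSS (kb, negative is upstream) at SOX11, NR2F2, ACVR2A and EPHA7, in the 3 lists. These are the leading genes by regions among genes with at most 1 multi-copy region, and SOX11 has 1. At NR2F2 the 13 dKO peaks and the 3 BAF53B peaks lie at different positions, and at SOX11 the WT list has 2 peaks.

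Members near transcription factors of neural patterning were more frequent in dKO. Of 58 such genes, 8 were the nearest gene of a WT member, 29 of a dKO member and 15 of a BAF53B member. The members numbered 8 (0.838% of WT members, 0.425 to 1.64), 84 (1.999%, 1.62 to 2.47) and 33 (1.23%, 0.876 to 1.72), against 1.39% of the territory. The interval of dKO overlaps slightly with each of the others. Over all peaks the shares near these genes were 0.393%, 0.751% and 0.531%, so the order is not particular to intergenic peaks. NR2F2 with 13 dKO members, NR2F1 and ID4 with 6 each, and SOX1, POU3F3 and IRX2 with 5 each led. The strongest in dKO was the region upstream of SIX3. It was followed by chr14:56855871-56856574, 39.4 kb upstream of OTX2, which specifies the forebrain, with 78 fragments in dKO, 43 in BAF53B and no WT peak. In WT the strongest was at chr3:182212296-182213000, 501 kb downstream of SOX2, with 36 fragments in WT and 34 in BAF53B and no dKO peak. A peak 32.6 kb upstream of ID4, an inhibitor of bHLH factors, was in all 3 lists with 29, 72 and 45 fragments, 2.31-fold higher in dKO than in WT.

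Among 28 NOTCH and proneural genes, 1 WT, 11 dKO and 6 BAF53B members had their nearest gene. These were 0.105% (0.0185 to 0.591), 0.262% (0.146 to 0.468) and 0.223% (0.102 to 0.486) of members, against 0.158% of the territory, and the intervals overlap. Over all peaks the shares near these genes were 0.0635%, 0.200% and 0.142%, so the order is not particular to intergenic peaks. The strongest member in each list was the same region, chr9:136572021-136572877, 26.2 kb upstream of NOTCH1, the receptor that maintains progenitors. It had 41 fragments in WT, 96 in dKO and 64 in BAF53B, a ratio of dKO over WT of 2.18. The dKO peak 166 kb upstream of HES1, a NOTCH target, had 38 fragments, and BAF53B had its own peaks 175 and 77.7 kb upstream, with 37 and 33.

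Among 43 genes of neural adhesion and axon guidance the order was different. WT had 29 members (3.04%, 2.12 to 4.33), dKO 68 (1.62%, 1.28 to 2.05) and BAF53B 65 (2.42%, 1.902 to 3.07). The territory nearest to these genes was 4.17%, above the intervals of dKO and BAF53B and within that of WT. Over all peaks the shares were 0.660% in WT, 0.562% in dKO and 0.844% in BAF53B. The leading WT and BAF53B peak was the same, upstream of PCDH9. In dKO the strongest was 88.8 kb upstream of PCDH18, with 57 fragments, followed by a peak 36.0 kb upstream of SEMA3E, a secreted guidance factor, with 52. Neither had a peak in the other lists.

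The remaining lists had few members. Of 39 mesenchymal, matrix and AP-1 genes, 5 WT, 21 dKO and 11 BAF53B members had their nearest gene, at 0.524%, 0.4998% and 0.409% against 0.460% of the territory. The strongest in all lists was 367 kb upstream of THBS1, a matrix glycoprotein, with 43, 51 and 35 fragments. Peaks 90.9 kb upstream of JUN, with 48 fragments, and 32.1 kb downstream of FOS, with 47, were in dKO only. Of 14 mesoderm and endoderm genes, 0 WT, 15 dKO and 6 BAF53B members had their nearest gene, led in dKO by a peak 192 kb upstream of TBX20, a heart factor, with 46 fragments. For WT the upper bound of this share was 0.401%, above the 0.357% of dKO, so a difference was not detectable at this number of peaks. Of 12 pluripotency genes the counts were 0, 5 and 6, or 0%, 0.119% (0.0508 to 0.278) and 0.223% (0.102 to 0.486) of members against 0.167% of the territory, with a peak 26.2 kb downstream of ZFP42 (33 fragments in dKO) the strongest. Over all WT, dKO and BAF53B peaks the shares near the mesenchymal, matrix and AP-1 genes were 0.266%, 0.311% and 0.336%. Near the mesoderm and endoderm genes they were 0%, 0.0943% and 0.0708%, and near the pluripotency genes 0.0127%, 0.0983% and 0.0944%. For the mesoderm and endoderm and the pluripotency genes WT was thus the lowest over all peaks too.

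Members were mostly alone. Of 6469 regions 5336 had no other region within 12.5 kb, 438 groups were pairs and 61 groups held 3 or more. Of the 15 groups of 4 or more, the 9 largest held multi-copy regions. Among the 5 groups with none, 5 regions spanned 25.5 kb near PTMA on chromosome 2, all in dKO and 1 in BAF53B, and 4 regions spanned 20.5 kb near FZD2, a WNT receptor, on chromosome 17, all in dKO only. At CSNK1G3, 1 of 4 regions was in dKO and 3 in BAF53B, at SNTB1 all 4 were in BAF53B only, and near DUX4 the counts were 2, 3 and 3 in WT, dKO and BAF53B. By chromosome, members were most frequent per Mb of qualifying genome on chromosome 19 in dKO (7.16) and on chromosome 17 in WT (1.73) and BAF53B (4.46). These densities were not matched by a high share of peaks. Members made up 5.10% of dKO peaks on chromosome 19, the lowest share of any chromosome, against 16.5% of all dKO peaks. On chromosome 17 they made up 8.796% of WT and 11.6% of BAF53B peaks, against 12.1% and 15.9% of all. Of the members there, 13 of 38 in WT and 16 of 98 in BAF53B were multi-copy. Members were rarest per Mb on chromosome X, at 0.0377 in WT, 0.327 in dKO and 0.163 in BAF53B. Their share of peaks on chromosome X was also below that of the whole list in each list.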

How the data were processed

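ATAC-seq of 6 samples (2 replicates in each of 3 groups) was analysed from 3 peak lists, 1 per group, in which the authors pooled both replicates. Per the submitters' processing notes and the study's methods, the authors trimmed reads with cutadapt 1.13, aligned them to hg38 with Bowtie2 2.2.5, removed duplicates with SAMtools 1.3.1 and Picard 1.90 and called peaks with MACS2; its options, and any Tn5 shift, are not given in the sources used here. The deposited fold is a ratio, summit pileup over local background with a pseudocount of 1. The other deposited columns hold Poisson significance, as −log10 p-values and, as a score, −log10 q. Every peak has a −log10 q of at least 5. No column of fold changes between groups was present.

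From fold and −log10 p the whole pileup and background were solved, which succeeded for 100% of peaks. Peaks were classed by summit against GENCODE version 44 and overlapped by at least 1 bp. A grid of every 1000 bases gave the genome shares. For motifs it was thinned to every 20 kb, and for copies to every 100 kb. Motifs were exact letter matches on both strands. Copies were counted as 31-base words in hg38, since the genome used carries no repeat marks; this step was added after the data had been seen. Shares have Wilson 95% intervals and medians order-statistic intervals, for counting error only. The solving of pileups, the classing of peaks, the overlaps and the motif search were tested on simulated data, and the counting of copies was not. Named regions were the 5 of highest fold per list, the 3 of highest −log10 q per pattern of lists, the 5 farthest from a protein-coding TSS, the genes nearest to most regions, the strongest per gene list and the strongest with a motif; the same rules were then applied to single-copy members. The members, gene lists and motifs were chosen with earlier results of these data known, and some items are not reported here. The tools were matplotlib 3.10.9, numba 0.67.0, pysam 0.24.0, scipy 1.17.1, pandas 2.3.3 and numpy 2.4.6 under Python 3.11.15.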

Additional observations from a re-analysis of the deposited data

How the results depend on the processing

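No paired analysis was possible because each group has 1 list in which its replicates are pooled. Single replicates were not left out, as no list holds 1 of them alone. Repeat-masked summits were not run, since the genome used carries no repeat marks. With no replicates, a value counts as moved when it leaves its 95% interval, and a number of peaks when it changes by over 1.5 times.

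With a −log10 q of at least 10 in both lists compared, the members numbered 177 in WT, 913 in dKO and 574 in BAF53B, or 5.94%, 7.83% and 8.14% of peaks. The share with no partner was then 32.2% for WT in dKO, 86.9% for dKO in WT, and 77.4% and 59.2% for BAF53B in WT and dKO. Of WT members without dKO 43.9%, and of dKO members without WT 16.1%, overlapped BAF53B, the AP-1 share of BAF53B was 17.8% and the median log2 ratio 0.0081. At equal list length the shares of peaks were 5.19% (dKO) and 8.76% (BAF53B), those with no partner 83.4% (WT in dKO), 61.1% (dKO in WT), 60.0% (BAF53B in WT) and 73.8% (BAF53B in dKO), those overlapping BAF53B 18.6% (WT) and 21.2% (dKO), the AP-1 share of BAF53B 17.5% and the ratio 0.37.

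Beyond 50 kb the members numbered 385, 1238 and 934, or 4.89%, 4.87% and 5.51% of peaks. The share with no partner was 88.5% (dKO in WT), 80.1% (BAF53B in WT) and 71.5% (BAF53B in dKO), 12.96% of dKO members without WT overlapped BAF53B, the AP-1 share of WT was 11.2%, and the ratio turned to −0.11. Beyond 5 kb the shares of peaks were 14.8%, 21.1% and 19.4%, BAF53B without dKO 65.7% and the ratio 0.14. Without the bodies of all genes the shares were 9.0%, 12.3% and 11.4%, WT without dKO 58.5% and BAF53B without dKO 66.5%. From the start of every transcript they were 11.3%, 15.2% and 14.6%.

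With an overlap of 50% of both peaks the share with no partner was 66.9% (WT in dKO), 92.5% (dKO in WT), 85.1% and 72.4% (BAF53B in WT and dKO), and 12.7% of dKO members without WT overlapped BAF53B. In single-copy members, chosen after the data had been seen, it was 68.0%, 93.5%, 85.8% and 70.5%, and the ratio was 0.20. A motif window of 50 bp gave AP-1 shares of 7.64% (WT), 2.93% (dKO), 8.52% (BAF53B) and 18.7% (WT and BAF53B without dKO). Comparing the authors' −log10 p in place of height gave a ratio of 0.21. The causes were not tested. Of the other values of these results, 122 did not move. The 122 leave out the shares of motifs other than AP-1, of which 88 values moved and 209 did not.

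A missing peak means only that its list was under threshold. Pooling hides the spread between replicates, and the lists differ in length more than in background.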
